A study of Mus musculus with 4 samples.

Results

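Bulk RNA sequencing of sorted Lewis lung carcinoma (LLC) cells gave 4 libraries, and these fell into 2 pairs that cut across host genotype. The Col1a1-high pair was WT replicate 2 with PAD4-DN replicate 1, and the Col1a1-low pair was WT replicate 1 with PAD4-DN replicate 2, so the 2 pairs together hold all 4 libraries. Membership was read from the measured Col1a1 level (over 100 CPM, which are counts per 1000000 library counts, in the first pair and under 100 in the second), and each pair holds 1 library of each genotype. Because the pairs were picked from these same values, every difference between them is given as a description without a test.

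LLC is a mouse lung carcinoma line that grows in C57BL/6 hosts. Tumours had been placed under the flank skin of C57BL/6 hosts and taken after 4 weeks, and the profiled cells were TdTomato-positive and CD45-negative after sorting of a digested tumour. The Padi4 alleles were floxed in every host. WT hosts were Mrp8Cre-negative and PAD4-DN hosts Mrp8Cre-positive; Mrp8Cre is a driver active in neutrophils, so the deletion concerns host neutrophils and not the sorted tumour cells. No source used here says that replicates of a genotype came from separate mice or tumours. The libraries held 25327974 and 20036322 estimated counts in the Col1a1-high pair and 23414984 and 24142484 in the Col1a1-low pair, so depth did not order the pairs.

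As background, type I collagen is the main fibrillar collagen of connective tissue. Its chains are made in bulk by fibroblasts, which also secrete periostin, collagen-crosslinking enzymes, complement components and chemokines. Immediate early genes such as Fos and Egr1 are switched on within minutes of growth factor signalling or tissue handling, without new protein synthesis. Stromelysins and macrophage elastase are secreted metalloproteinases that cut matrix proteins; carcinoma cells and fibroblasts can make them as well as macrophages. Interferon-stimulated genes encode antiviral and antigen-presentation proteins and are switched on by interferon receptor signalling.

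For every gene the Col1a1-high library was compared with the Col1a1-low library of the same genotype, as a difference in log2(CPM + 1). The 2 differences share no library. A gene was counted as separating the pairs where both differences reached 1 (2-fold) in the same direction, a scale that understates changes of genes near 1 CPM. Of 13718 genes with enough counts, 166 (1.21%) were counted as higher and 9 (0.0656%) as lower in the Col1a1-high pair. Of the 166, 164 were protein-coding, and 17 other genes differed 2-fold in opposite directions in the 2 genotypes. The WT difference alone reached 2-fold for 398 genes (2.9%), of which 281 (2.05%) were higher, and the PAD4-DN difference alone for 526 (3.83%), of which 435 (3.17%) were higher.

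Together 175 genes were counted, and outside them the differences of the 2 genotypes were nearly unrelated. Across the 13718 genes the WT and PAD4-DN differences had a Pearson r of 0.31 and a Spearman rho of 0.04, as a description across genes, which are not independent. Without the counted genes r was 0.01 over 13543 genes, a value that leaving out same-direction genes lowers by construction. Both differences had the same sign for 50.19% of genes. In the plot of WT against PAD4-DN differences the counted genes form a tail towards the upper right.

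**Figure D1:**
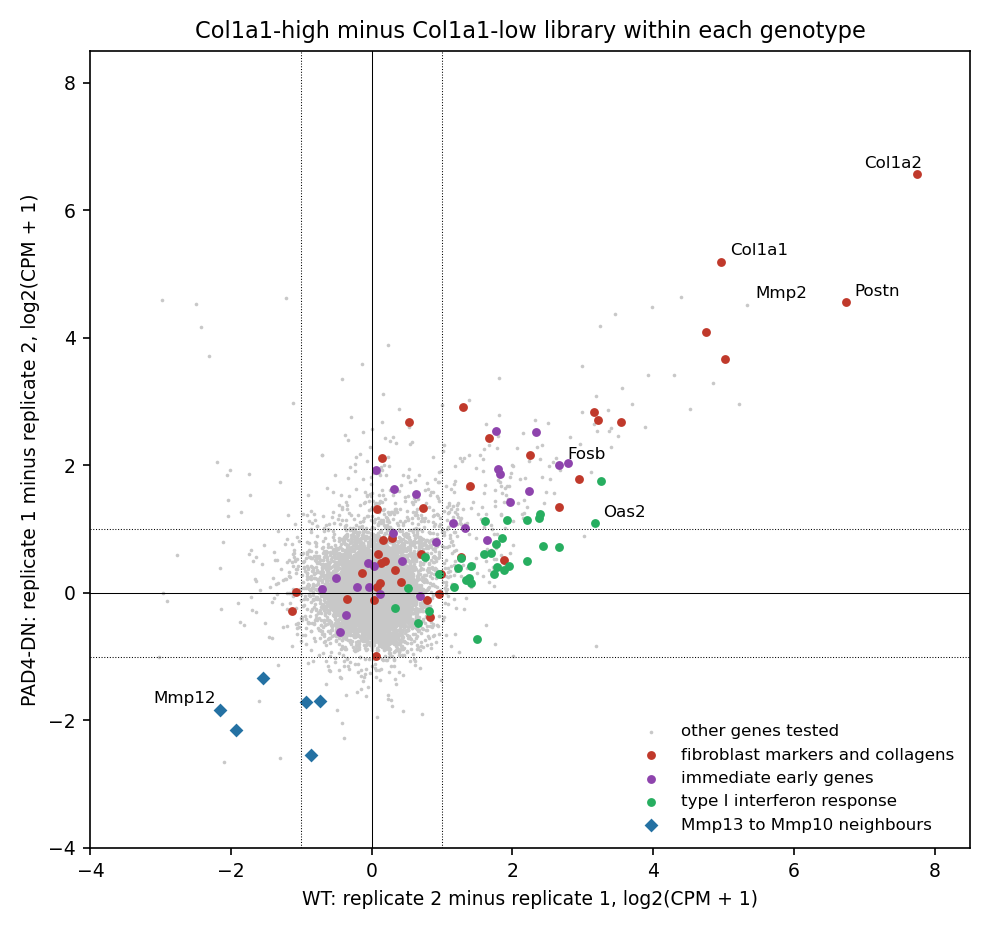
Each point is 1 of 13718 genes, with the Col1a1-high minus Col1a1-low difference in log2(CPM + 1) in WT on the horizontal axis and in PAD4-DN on the vertical axis; dotted lines mark 2-fold. Fibroblast and collagen genes reach furthest to the upper right, many immediate early genes lie near the diagonal, type I interferon genes are shifted mainly along the WT axis, and the metalloproteinase neighbours lie at the lower left.

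Collagen chains and other matrix proteins were among the genes that separated the pairs most. In what follows the 2 values for the Col1a1-high pair are those of WT replicate 2 and then PAD4-DN replicate 1, and the 2 for the Col1a1-low pair those of WT replicate 1 and then PAD4-DN replicate 2. Col1a1, the gene that defined the pairs and the alpha 1 chain of type I collagen, was at 531 and 652 CPM in the Col1a1-high pair and at 16.0 and 16.9 CPM in the Col1a1-low pair. Col1a2, the alpha 2 chain that joins it in the type I trimer, was at 404 and 467 CPM versus 0.879 and 3.94 CPM. Both chains were thus high in the same 2 libraries, with differences of 4.97 (WT) and 5.19 (PAD4-DN) for Col1a1 and of 7.75 and 6.57 for Col1a2.

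Col5a2, a chain of type V collagen that is built into type I fibrils, was at 93.2 and 73.2 CPM in the Col1a1-high pair and at 2.51 and 3.35 CPM in the Col1a1-low pair. Col12a1, a collagen that decorates fibril surfaces, was at 165 and 97.0 CPM versus 4.13 and 6.71 CPM, and the related Col14a1 at 31.7 and 26.5 CPM versus 1.80 and 3.31 CPM. Postn, the matricellular protein periostin, was at 129 and 62.8 CPM versus 0.220 and 1.72 CPM. None of these genes had overlapping pairs, and in each the 2 low libraries were within a few CPM of each other. Here and below, the share of all genes without overlap was not counted, and most genes named were picked for their differences. A lack of overlap is therefore a description only.

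The enzymes that mature collagen split. Lox, which starts collagen cross-links, was at 45.9 and 28.0 CPM in the Col1a1-high pair and at 3.17 and 4.28 CPM in the Col1a1-low pair. Its relative Loxl1 was at 10.9 and 6.54 CPM versus 0.132 and 0.252 CPM, and Adamts2, the procollagen N-propeptidase, at 15.3 and 13.3 CPM versus 1.85 and 2.60 CPM. Of 22 tested collagen-processing genes these 3 and the prolyl hydroxylase subunit P4ha3 were counted as higher and none as lower. The share counted as higher was 1.21% over all genes. By any amount 12 were higher in both genotypes, against 27% of all genes, 2 were lower and 8 went opposite ways. Loxl2 was higher by 0.76 in WT and 1.17 in PAD4-DN without being counted. Plod1 differed by −0.45 in WT and 0.60 in PAD4-DN. Some other members stayed near level. The collagen chaperone Serpinh1 was at 435 and 376 CPM versus 367 and 356 CPM, and the lysyl hydroxylase Plod2 at 746 and 715 CPM versus 788 and 780 CPM.

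**Figure D2:**
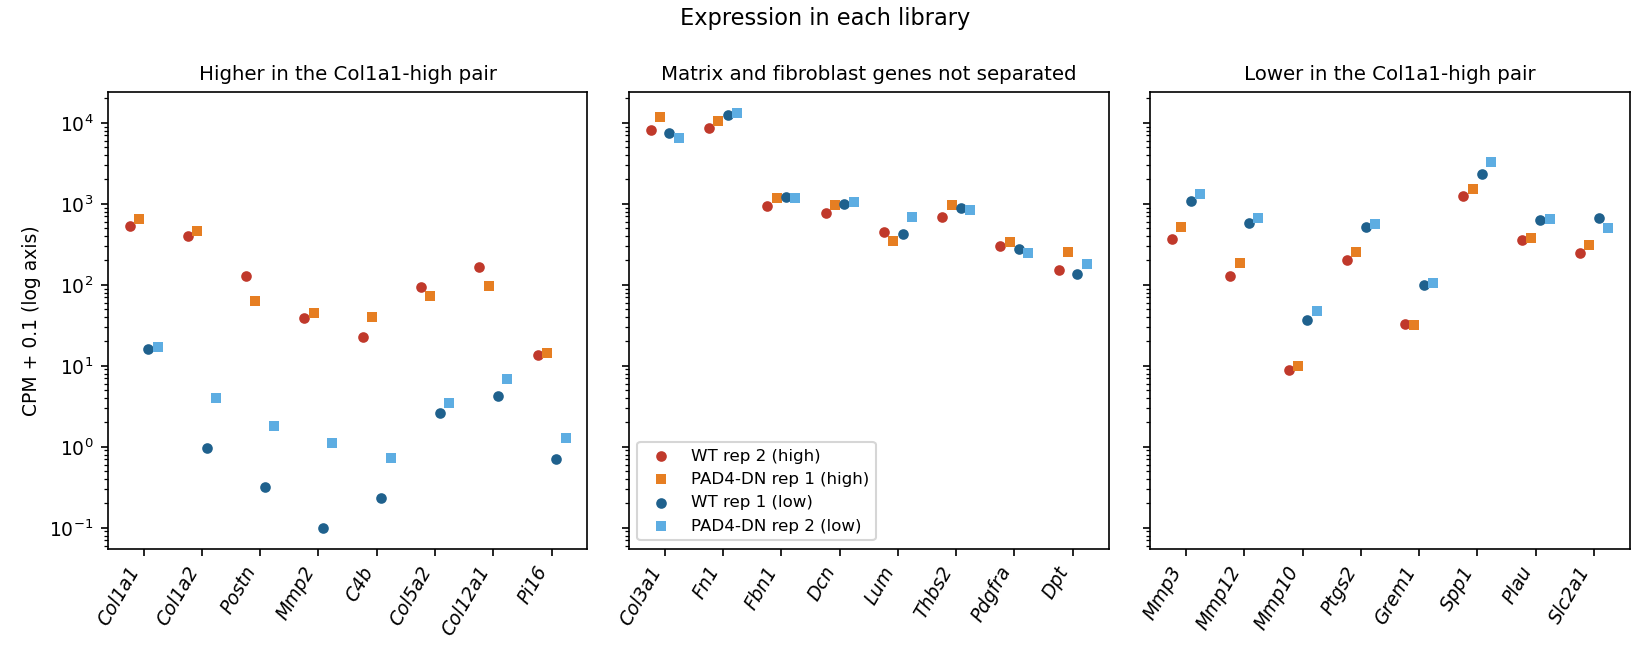
CPM plus 0.1 in each library on a log axis. The genes are 8 higher and 8 lower in the Col1a1-high pair, and 8 matrix and fibroblast genes not counted as separating the pairs. Among the lower ones, Spp1, Plau and Slc2a1 also fell short of the 2-fold rule. Circles are WT and squares PAD4-DN. Red and orange mark the Col1a1-high pair and blue the Col1a1-low pair. Col1a2 spans 0.879 to 467 CPM, while Col3a1 and Dcn sit close together in all 4 libraries.

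Fibrillar collagen genes shared the direction of Col1a1 but seldom its size. Of 9 tested, 3 were counted as higher (Col1a1, Col1a2 and Col5a2), against 1.21% of all genes. All 9 were higher in both genotypes by any amount, against 27% of all genes tested. Col1a1 defined the pairs and Col1a2 served as a marker for them. Their part in these counts and in the list's median was therefore set beforehand. The list's median difference was 0.70 in WT and 0.83 in PAD4-DN, against 0.01 in each over all genes tested. Col3a1, the type III chain that usually accompanies type I in soft tissue, was at 8248 and 11641 CPM in the Col1a1-high pair and at 7405 and 6564 CPM in the Col1a1-low pair. Col5a1, the usual partner chain of Col5a2, was at 416 and 487 CPM versus 340 and 269 CPM. Both chains were higher in the Col1a1-high pair by less than 2-fold, and neither was near 0 in the libraries where Col1a2 was lowest.

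Chains of type VI collagen, a microfibril of the pericellular matrix, differed among libraries in other ways. Col6a1 was at 301 and 864 CPM in the Col1a1-high pair and at 272 and 199 CPM in the Col1a1-low pair, and Col6a2 at 181 and 515 CPM versus 126 and 79.8 CPM. PAD4-DN replicate 1 stood highest for both, and the 2 WT libraries differed by 0.15 and 0.52. Col6a3 was at 680 and 674 CPM versus 648 and 270 CPM, with PAD4-DN replicate 2 alone low. Of the 8 tested interstitial collagens outside the fibrillar class, only Col12a1 and Col14a1 were counted as higher, against 1.21% of all genes.

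The label of stromal-high held for part of the fibroblast list. Of 24 fibroblast markers, all tested, 9 were counted as higher, against 1.21% of all genes, and 0 as lower. By any amount 17 were higher in both genotypes, against 27% of all genes. The list's median difference was 0.77 in WT and 0.56 in PAD4-DN. The 9 were Postn, Pi16, Mfap5, Igf1, Pdpn, Clec3b, Fbln1, Thy1 and Islr. Pi16, a marker of adventitial fibroblasts, was at 13.4 and 14.4 CPM in the Col1a1-high pair and at 0.615 and 1.17 CPM in the Col1a1-low pair. Mfap5, a microfibril protein, was at 8.73 and 6.39 CPM versus 0.0440 and 0.126 CPM. Igf1, a growth factor secreted by fibroblasts, was at 4.16 and 5.37 CPM versus 0.0879 and 0.419 CPM, again with no overlap.

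The other 15 fibroblast markers were not counted, and several of them were detected at similar levels in every library. They ranged from Smoc2, at 0.793 and 1.51 CPM in the Col1a1-high pair and 0.0879 and 0 CPM in the Col1a1-low pair, to Col3a1. Pdgfra, the PDGF receptor alpha chain, was at 300 and 340 CPM in the Col1a1-high pair and at 274 and 247 CPM in the Col1a1-low pair. Dcn, the proteoglycan decorin, was at 770 and 981 CPM versus 981 and 1045 CPM, and Lum, the related lumican, at 442 and 343 CPM versus 425 and 681 CPM. Fap, fibroblast activation protein, was at 12.1 and 29.2 CPM versus 26.5 and 29.1 CPM. The pairs overlapped for Lum and Fap, and for Dcn a library of each pair stood at 981 CPM. Pdgfra, Smoc2 and Col3a1 did not overlap between pairs but fell short of the 2-fold rule. As these markers were not counted as separating the pairs, the pairs are called by Col1a1 here. In bulk RNA, fewer cells of a type and less RNA per cell cannot be told apart.

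A set of 38 genes came close to an on-off pattern, with under 2 CPM in both Col1a1-low libraries and at least 5 CPM in both Col1a1-high libraries; both limits were set after the values had been seen. Their summed level was 627 and 499 CPM in the Col1a1-high pair and 15.7 and 23.3 CPM in the Col1a1-low pair. Both limits force a gap of this kind, so the sums describe the set and are not a separate result. The ratio of WT replicate 2 to PAD4-DN replicate 1 had a median of 1.13 over the 38 genes and ran from 0.491 to 3.85. WT replicate 2 was the higher for 21 of them, and PAD4-DN replicate 2 was above WT replicate 1 for 28.

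Mmp2, gelatinase A, had 0 counts in WT replicate 1, which allows up to 3 counts or 0.132 CPM for counting error only. It was at 39.2 and 45.0 CPM in the Col1a1-high pair and at 1.01 CPM in PAD4-DN replicate 2. Among genes of this set in none of the lists, singled out after their values were seen, Igfbp5, an insulin-like growth factor binding protein, was at 36.3 and 9.42 CPM versus 0 and 0.335 CPM. Cxcl12, the chemokine ligand of CXCR4, was at 8.57 and 7.27 CPM versus 0.0440 and 0.419 CPM. Sfrp2, a secreted modulator of Wnt signalling, was at 6.90 and 11.7 CPM versus 0 and 0.0838 CPM. The balance between both Col1a1-high libraries thus varied by gene, with Igfbp5 highest in WT replicate 2 and Sfrp2 highest in PAD4-DN replicate 1.

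Complement genes were among the largest differences. This list was drawn up after C4b and C3 had been seen near the top. Of 19 tested complement components and regulators, 7 were counted as higher, against 1.21% of all genes, and 0 as lower. The list's median difference was 0.43 in WT and 0.86 in PAD4-DN. C4b, a component of the classical pathway, was at 22.7 and 39.7 CPM in the Col1a1-high pair and at 0.132 and 0.629 CPM in the Col1a1-low pair. C3, on which all complement pathways converge, was at 66.7 and 62.8 CPM versus 6.42 and 6.54 CPM. Serping1, the C1 inhibitor, was at 16.9 and 23.3 CPM versus 0.132 and 0.0838 CPM, so all 3 had clearly separated pairs. C2, Cfb and Cd55 were also among those counted. Masp1, a protease of the lectin pathway, was not counted, at 113 and 137 CPM versus 127 and 112 CPM.

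A pair of other secreted proteins had the same order. Serpina3n, a secreted protease inhibitor, was at 10.5 and 21.3 CPM in the Col1a1-high pair and at 0.0440 and 0.0838 CPM in the Col1a1-low pair. Gpx3, the plasma glutathione peroxidase, was at 9.68 and 17.9 CPM versus 0.132 and 0.0419 CPM. In both genes PAD4-DN replicate 1 was the highest library, and the 2 low libraries had at most 3 counts each.

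Part of the immediate early gene list was also higher in the Col1a1-high pair, with PAD4-DN replicate 1 highest. Of 27 tested members 10 were counted as higher, against 1.21% of all genes, and 0 as lower. By any amount 18 were higher in both genotypes, against 27% of all genes, 2 were lower and 7 went opposite ways. The list's median difference was 0.62 in WT and 0.94 in PAD4-DN. Relative to each gene's mean over the 4 libraries, the list median was 0.01 in WT replicate 2 and 0.65 in PAD4-DN replicate 1. In the Col1a1-low pair it was −0.48 and −0.28. Fos, the AP-1 subunit that served as a marker for the pairs, was at 540 and 866 CPM in the Col1a1-high pair and at 114 and 286 CPM in the Col1a1-low pair. The part of Fos in these counts and in the list's medians was therefore set beforehand. Fosb, a relative of Fos, was at 241 and 388 CPM versus 37.3 and 95.8 CPM. Zfp36, which encodes the mRNA-decay factor tristetraprolin, was at 312 and 540 CPM versus 44.1 and 130 CPM. For all 3 the 4 libraries stood in 1 order, from WT replicate 1 through PAD4-DN replicate 2 and WT replicate 2 to PAD4-DN replicate 1.

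The remaining counted members were Btg2, Ier2, Atf3, Nr4a1, Egr1, Jun and Junb. Egr1, a zinc finger factor, was at 248 and 415 CPM in the Col1a1-high pair and at 62.9 and 154 CPM in the Col1a1-low pair. Jun, the main AP-1 partner of Fos, was at 799 and 987 CPM versus 320 and 489 CPM, and its PAD4-DN difference of 1.01 was just inside the limit. Other members did not follow. Fosl1, another AP-1 subunit, was at 77.9 and 85.2 CPM versus 128 and 82.0 CPM, and Myc at 336 and 402 CPM versus 477 and 343 CPM. Ier3 was lower in the Col1a1-high library of both genotypes, at 194 and 228 CPM versus 266 and 349 CPM.

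In the low pair the counted immediate early genes ran from 3.96 CPM for Nr4a1 to 489 CPM for Jun. Heat shock chaperones had 0 of 13 members counted in either direction, where 1.21% of all genes were counted as higher. The chaperone medians were 0.01 in WT and 0.04 in PAD4-DN. Whether tissue handling had a part in these differences was not tested. Tnfaip3, an NF-kB target that feeds back on the pathway, was at 70.8 and 174 CPM in the Col1a1-high pair and at 28.4 and 40.7 CPM in the Col1a1-low pair. It was the 1 gene counted as higher among 25 tested NF-kB and inflammatory cytokine genes, of which 2 were counted as lower. Over all genes these shares were 1.21% and 0.0656%.

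**Figure D3:**
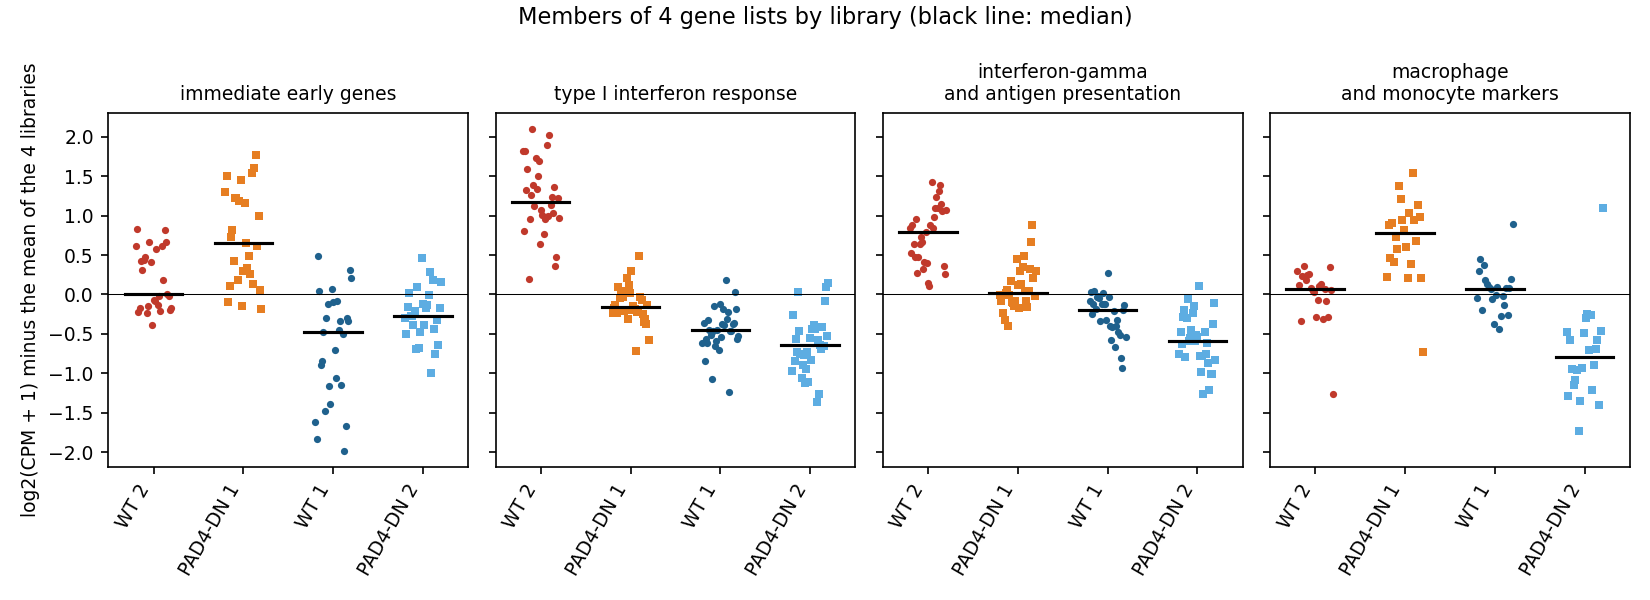
Each point is 1 tested member of a list in 1 library, as log2(CPM + 1) minus that gene's mean over the 4 libraries, and black lines are medians. For immediate early genes the medians are 0.01 and 0.65 in the Col1a1-high libraries and −0.48 and −0.28 in the low ones. For type I interferon genes WT replicate 2 stands alone at 1.18. WT replicate 2 is also highest, at 0.80, for the interferon-gamma and antigen presentation list. For macrophage markers PAD4-DN replicate 1 is highest at 0.78 and PAD4-DN replicate 2 lowest at −0.80.

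Interferon genes were higher in the Col1a1-high pair, mostly through 1 library. Of 32 tested type I interferon response genes 7 were counted as higher, against 1.21% of all genes, and 0 as lower. By any amount 28 were higher in both genotypes, against 27% of all genes. The median difference was 1.65 in WT and 0.46 in PAD4-DN. Ifi44, an interferon-stimulated gene, was at 33.0 and 10.7 CPM in the Col1a1-high pair and at 2.55 and 2.47 CPM in the Col1a1-low pair. Irf7, the factor that amplifies type I interferon, was at 25.3 and 7.86 CPM versus 4.00 and 2.77 CPM. Isg15, the ubiquitin-like modifier, was at 16.3 and 3.90 CPM versus 2.77 and 2.47 CPM and was not counted. In each of these genes WT replicate 2 was far above the other 3 libraries in CPM, and PAD4-DN replicate 1 lay nearer the low pair. In log2(CPM + 1) the latter did not hold for Ifi44, with differences of 3.26 in WT and 1.75 in PAD4-DN.

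Genes of the interferon-gamma and antigen presentation list had WT and PAD4-DN median differences closer together, but WT replicate 2 again stood highest. Relative to each gene's mean over the 4 libraries, the list medians were 0.80 and 0.02 in the Col1a1-high pair. In the Col1a1-low pair they were −0.20 and −0.59. Summed levels were 3001 and 1824 CPM versus 1877 and 1499 CPM, so the pairs overlapped in the sum. Of 31 tested, 8 were counted as higher, against 1.21% of all genes, and 0 as lower. The list's median difference was 0.92 in WT and 0.62 in PAD4-DN. Cxcl10, a chemokine that draws activated T cells, was at 28.6 and 25.3 CPM in the Col1a1-high pair and at 6.51 and 6.12 CPM in the Col1a1-low pair. Cxcl9, its relative, was at 10.9 and 7.51 CPM versus 2.07 and 1.68 CPM, and the GTPase Iigp1 at 72.4 and 34.1 CPM versus 18.6 and 11.1 CPM. B2m, the invariant chain of MHC class I, was not counted, at 828 and 476 CPM versus 615 and 517 CPM.

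The 9 genes lower in the Col1a1-high pair included 3 neighbouring metalloproteinases. Mmp12, macrophage elastase, was at 128 and 187 CPM in the Col1a1-high pair and at 576 and 667 CPM in the Col1a1-low pair. Mmp12 also served as a marker for the pairs, so its place among the 9 was set beforehand. Mmp3, stromelysin 1, was at 369 and 520 CPM versus 1084 and 1314 CPM. Mmp10, stromelysin 2, was at 8.73 and 9.86 CPM versus 36.2 and 47.2 CPM. The pairs did not overlap for any of them, and the low pair was the higher one in both genotypes, opposite to Mmp2.

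The gene order along chromosome 9, from GENCODE M21 on GRCm38, runs Mmp13, Mmp12, Mmp1b, Mmp3, Mmp1a, Mmp10, Mmp8 and Mmp27. The first 6 were all lower in the Col1a1-high library of both genotypes, against 23.2% of all genes tested, and the last 2 were not. Mmp13, collagenase 3, was at 4.44 and 2.39 CPM in the Col1a1-high pair and at 9.41 and 10.1 CPM in the Col1a1-low pair, just outside the limit in WT with a difference of −0.94. Mmp1a was at 3.21 and 1.51 CPM versus 6.68 and 13.7 CPM and Mmp1b at 1.55 and 1.07 CPM versus 3.25 and 5.70 CPM; these are similar interstitial collagenase copies, so the split of reads between them is uncertain. Mmp8, neutrophil collagenase, was at 0.159 and 1.37 CPM versus 0.396 and 0.629 CPM. Mmp27 was at 0.357 and 0.537 CPM versus 0.0879 and 0.168 CPM and had too few counts to be tested. Both had few counts, so their order is a weak contrast to that of the first 6. Mmp20 and Mmp7, the next genes in that order, had 0 counts in all 4 libraries.

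**Figure D4:**
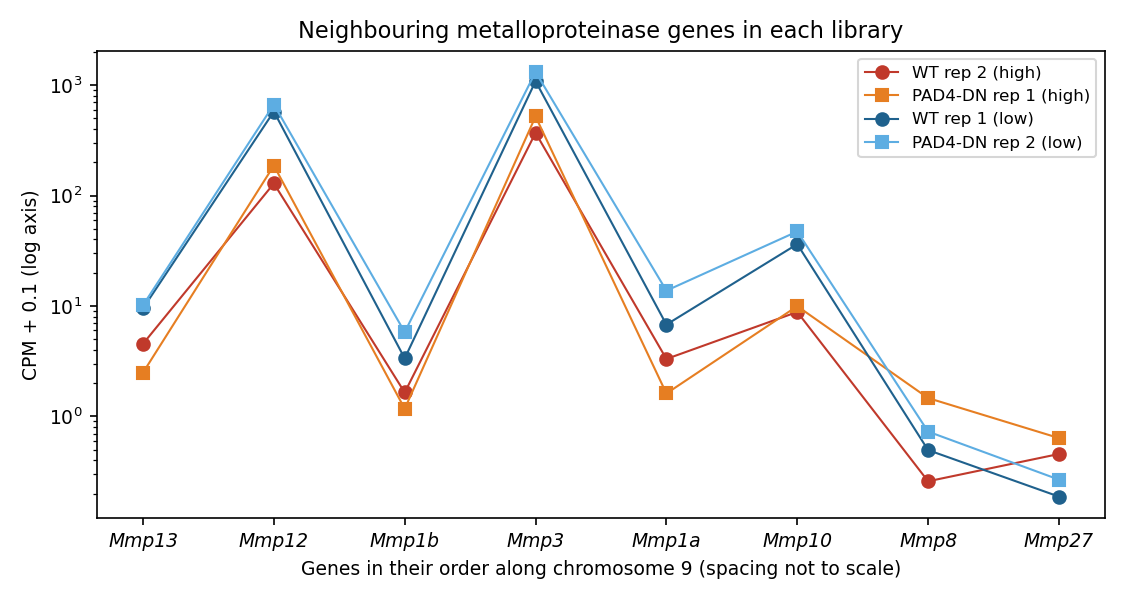
CPM plus 0.1 on a log axis for 8 neighbouring metalloproteinase genes in their chromosomal order; lines join the values of 1 library and carry no measurement between genes. From Mmp13 to Mmp10 both blue Col1a1-low libraries lie above both Col1a1-high libraries. At Mmp8 and Mmp27, which had few counts, they do not.

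Because these neighbours moved together, promoter stretches are shown for 4 of them, each the 100 bases before the listed start (RefSeq, GRCm38.p6, plus strand), with a match to the AP-1 motif TGANTCA in capitals.
Mmp13: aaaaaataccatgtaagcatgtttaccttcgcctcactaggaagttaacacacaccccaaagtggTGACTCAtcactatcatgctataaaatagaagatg
Mmp12: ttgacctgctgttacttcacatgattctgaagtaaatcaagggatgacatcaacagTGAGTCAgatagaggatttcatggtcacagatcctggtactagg
Mmp3: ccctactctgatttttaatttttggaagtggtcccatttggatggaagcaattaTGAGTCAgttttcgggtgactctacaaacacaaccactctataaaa
Mmp10: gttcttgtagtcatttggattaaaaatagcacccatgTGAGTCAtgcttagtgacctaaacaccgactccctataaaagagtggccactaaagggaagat
They lie at chr9:7272414-7272513, chr9:7347274-7347373 (the second of 2 starts listed for Mmp12), chr9:7445722-7445821 and chr9:7502242-7502341. AP-1 is the dimer of Fos and Jun family proteins. The motif, which reads the same on both strands, occurred in a listed promoter of all 6 lower neighbours. It was not found for Mmp8 or Mmp27, which had few counts, but was found for the undetected Mmp20 and Mmp7. The motif was in 7.81% of 32851 RefSeq promoters of 300 bases, and in a listed promoter of 8.97% of genes. Fos and Jun transcripts and these metalloproteinase transcripts stood in opposite order between the pairs.

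Matches to 8 motifs were counted in all, and the promoters shown were picked after their matches had been seen. The others were CCAAT (37.4% of promoters), the interferon-stimulated response element (ISRE, 3.44%), the CArG box (1.63%), the CRE TGACGTCA (1.79%) and its half-site CGTCA (20.8%), the hypoxia element ACGTG or GCGTG (43.8%) and TATAA (24.9%), on both strands. CGTCA lies within TGACGTCA, so matches to the last pair overlap. The ISRE was found for 13 of 23 type I interferon genes with a listed promoter, against 3.99% of all genes with one. Among 22 immediate early genes with one, AP-1 was found for 0 and the CArG box for 2. Of the genes counted as higher, 103 had a listed promoter, and AP-1 was found for 12 of them, or 11.7%, against 8.97% of all genes with one.

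Stretches of 120 bases before the start are shown for Zfp36, an immediate early gene that holds a CArG box, and for Col1a2, the gene that separated the pairs most, with the CArG box and CCAAT in capitals.
Zfp36: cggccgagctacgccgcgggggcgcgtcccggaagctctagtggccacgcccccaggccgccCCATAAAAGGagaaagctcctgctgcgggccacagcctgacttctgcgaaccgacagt
Col1a2: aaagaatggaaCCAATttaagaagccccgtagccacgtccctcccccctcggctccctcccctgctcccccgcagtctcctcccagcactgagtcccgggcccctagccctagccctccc
They lie at chr7:28379229-28379348 (minus strand) and chr6:4505498-4505617 (plus strand). A match is a string of letters and not a measured binding site.

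Mmp12 is a macrophage marker, but its order was not that of the other macrophage markers. Of 22 tested macrophage and monocyte markers 0 were counted as higher and 1 as lower, which was Mmp12 itself. Over all genes 1.21% were counted as higher and 0.0656% as lower. The other 22 listed genes, none at 0 in all libraries, summed to 76.1 and 163 CPM in the Col1a1-high pair and to 75.7 and 27.2 CPM in the Col1a1-low pair. Lyz2, lysozyme, was at 22.9 and 50.9 CPM versus 20.4 and 4.99 CPM. Mmp12 was highest in PAD4-DN replicate 2, the library with the lowest macrophage sum, and the WT libraries differed by −2.16 in Mmp12 with nearly equal sums. Which cells made the Mmp12 transcripts was not tested.

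The next 3 lower genes were Ptgs2, Grem1 and Csf3, which make or encode secreted signals. Ptgs2, the prostaglandin synthase COX-2, was at 203 and 253 CPM in the Col1a1-high pair and at 512 and 558 CPM in the Col1a1-low pair. Grem1, an antagonist of bone morphogenetic proteins, was at 32.3 and 31.5 CPM versus 100.5 and 104 CPM. Csf3, the granulocyte colony-stimulating factor, was at 1.90 and 1.02 CPM versus 6.15 and 11.2 CPM. None of them had overlapping pairs, and the libraries within a pair were closest for Grem1. The last 3 were the histone gene Hist1h2ao and the pseudogenes Gm6472 and Gm2436, whose reads can be shared with near-identical copies.

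Below the 2-fold limit several genes showed the same order. Spp1, the secreted phosphoprotein osteopontin, was at 1258 and 1537 CPM in the Col1a1-high pair and at 2364 and 3295 CPM in the Col1a1-low pair. Plau, the urokinase plasminogen activator, was at 361 and 383 CPM versus 630 and 649 CPM, and Ereg, the EGF receptor ligand epiregulin, at 34.7 and 48.5 CPM versus 67.1 and 85.8 CPM. Slc2a1, the glucose transporter GLUT1, was at 244 and 306 CPM versus 674 and 498 CPM. All 4 were named for differences of the same sign, which ran from −0.70 to −1.46. That their pairs did not overlap is therefore no separate result. At the limit on the higher side, Tns1 was just inside with a smaller difference of 1.01 and Thbs1 just outside with 1.00.

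Hypoxia and glycolysis genes leaned the same way as Slc2a1 without being counted. Of 32 tested, 0 were counted in either direction, 23 were lower in both genotypes by any amount and 2 higher, with a median difference of −0.51 in WT and −0.20 in PAD4-DN. Over all genes tested, 23.2% were lower and 27% higher in both. Egln3, an oxygen-sensing prolyl hydroxylase, was at 236 and 286 CPM in the Col1a1-high pair and at 441 and 399 CPM in the Col1a1-low pair. Vegfa, the vascular growth factor, was at 50.7 and 69.5 CPM versus 101 and 80.2 CPM. Gapdh was at 2139 and 2082 CPM versus 3022 and 2073 CPM, so for that gene WT replicate 1 alone stood out.

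**Figure D5:**
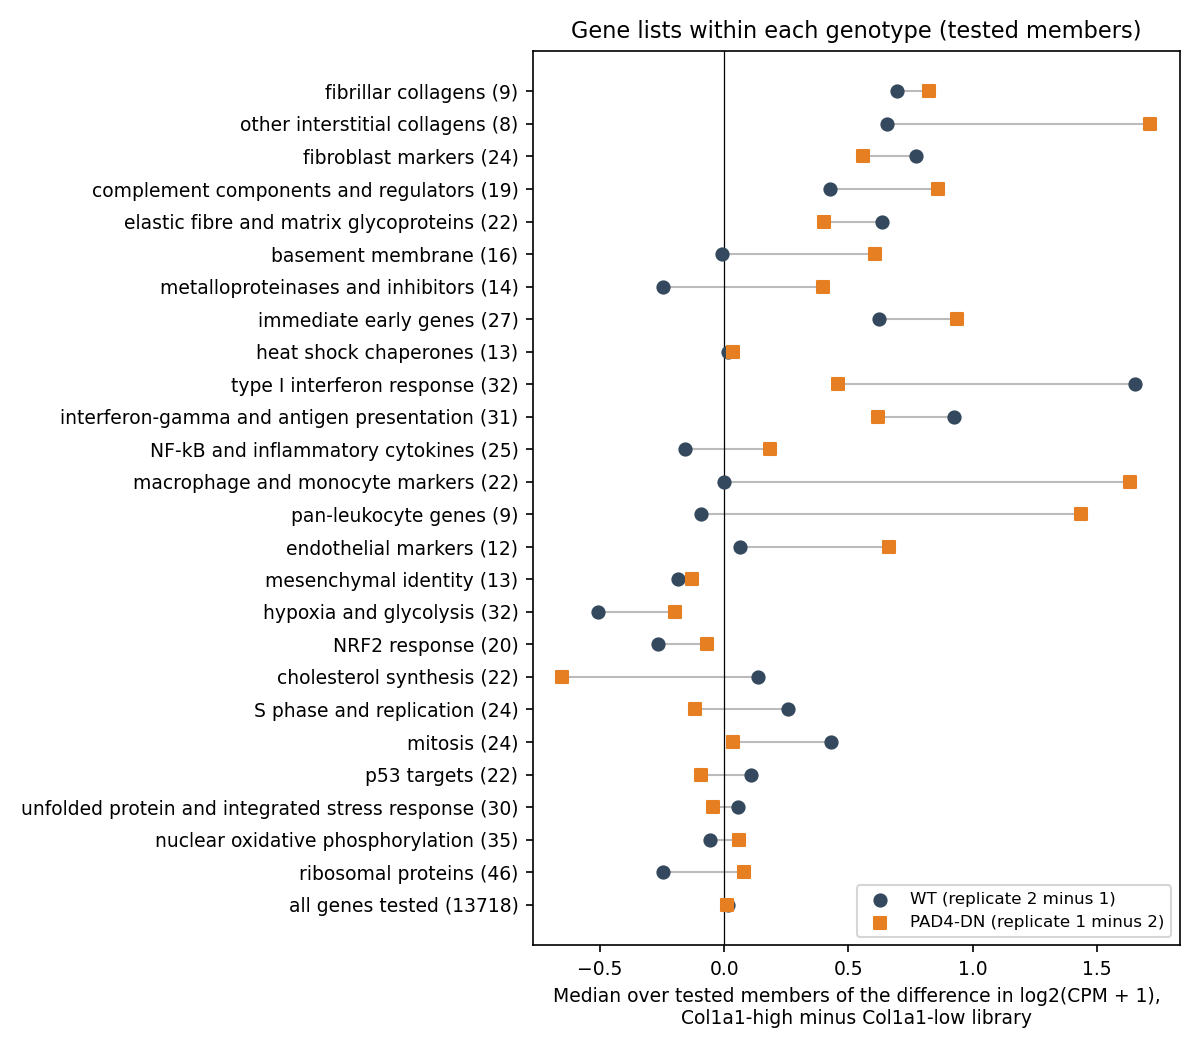
Median over the tested members of each list of the Col1a1-high minus Col1a1-low difference in log2(CPM + 1), for WT (dark circles) and PAD4-DN (orange squares), with the number of tested members in brackets. Both medians lie above 0.4 for the fibroblast, collagen, complement, immediate early and interferon lists and below 0 for hypoxia, while macrophage markers are at −0.00 in WT and 1.63 in PAD4-DN; all genes tested are at 0.01.

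Lists for most other cell types had no counted member, which with 1.21% of all genes counted as higher says little for lists of this size. Pan-leukocyte genes summed to 61.8 and 111 CPM in the Col1a1-high pair and to 89.2 and 80.3 CPM in the Col1a1-low pair. Endothelial markers summed to 140 and 162 CPM versus 141 and 117 CPM, and pericyte and smooth muscle markers to 23.5 and 26.5 CPM versus 17.5 and 16.8 CPM. The lists without a counted member were the leukocyte (9 tested), endothelial (12), pericyte (7), skeletal muscle (4), adipocyte (1), nerve (5), keratinocyte (1), T and NK cell (2), and B and dendritic cell (9) lists. The pan-leukocyte median difference was −0.09 in WT and 1.44 in PAD4-DN. The pericyte sums were the ones of these 3 that did not overlap between pairs. With 2 libraries in each pair, such an order alone says little. None of the leukocyte, endothelial or pericyte genes was at 0 in all libraries, while Fcer1a of mast cells, Myh2 of muscle, Krt14, Krt1 and Lor of keratinocytes and Cidec and Lep of adipocytes were. Their part in the differences above was not tested.

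Mesenchymal identity, cell cycle and ribosomal genes had no counted member, again near the share of 1.21% over all genes. Of 13 mesenchymal identity genes 0 were counted, with medians of −0.18 in WT and −0.13 in PAD4-DN; Fn1, fibronectin, was at 8614 and 10581 CPM in the Col1a1-high pair and at 12371 and 13317 CPM in the Col1a1-low pair. Mitosis genes had medians of 0.43 in WT and 0.04 in PAD4-DN, and S phase genes of 0.26 and −0.12, with 0 of 24 counted in each. Ribosomal protein genes had 0 of 46 counted and medians of −0.25 and 0.08. Cell cycle genes were thus somewhat higher in WT replicate 2 than in WT replicate 1 without a matching difference in PAD4-DN.

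The genotype contrast, which the pairs did not use since each holds 1 library of each genotype, was the only comparison tested. By edgeR's quasi-likelihood test with Benjamini-Hochberg adjustment, 0 of the 175 genes that separated the pairs differed between PAD4-DN and WT, and 0 of all 13718 did (0%). At an unadjusted p under 0.05 there was 1 of the 175, or 0.571%, namely Angptl7, a secreted angiopoietin-like protein with a log2 fold change of 1.83, against 364 (2.65%) of all genes. Choosing genes for a large difference within each genotype raises the spread that this test uses. For Col1a2 the log2 fold change of PAD4-DN over WT was 0.22 and for Mmp12 0.28, small beside differences of 6.57 or more and 1.83 or more in size between libraries of 1 genotype.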

How the data were processed

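Poly-A, strand-specific 75-cycle single-end RNA sequencing was done on 2 WT and 2 PAD4-DN samples, per the labels' protocols. Per the file headers, each sample has 1 kallisto table listing 117486 transcripts. Per the submitters' processing notes kallisto and GRCm39 were used; its version, index annotation and options are not given there. The deposited expected counts (kallisto's estimated counts) are unscaled reads per transcript, and the deposited TPM column corrects for effective length. Kallisto divides reads between similar transcripts by estimate.

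Identifiers without version were matched to GENCODE M21 (GRCm38, names, biotypes and gene order only): 116408 transcripts matched, and unmatched ones held 0.483% to 0.493% of counts. Counts were summed over 35905 genes, rounded, scaled by TMM (edgeR 4.0.16, R 4.3.3) and filtered by filterByExpr, leaving 13718 genes. CPM uses the TMM-scaled library size. With 2 libraries per genotype, the genotype test measures only the spread between these libraries, and intervals from counts cover counting error only, since PCR reads carry no molecular identifiers.

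The pairs, the 43 gene lists and the counting rule were chosen with earlier results of these data known, and the complement list, the on-off limits and the promoters after the values were seen, so nothing here is independent support for the pattern. Named genes were protein-coding genes with a mean of at least 5 CPM and same-sign differences, the 15 per direction with the largest smaller difference, the 3 leading members of each list, and Col1a1, Col1a2, Fos and Mmp12; other list members are named to show what was not separated, and not every gene the rule names is printed. Alternatives were DESeq2 1.42.0 size factors, plain totals, other filters, TPM, a pseudocount of 0.25, 1.5-fold, protein-coding genes and each library left out. The genotype test was also tried on simulated counts. The deviations of same-numbered libraries had r = −0.311 across genes, which is the crossed pattern with its sign reversed and no separate check; no label says that a number marks a shared batch, so no pairing was used.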

Additional observations from a re-analysis of the deposited data

Results flagged for a closer look

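Neutrophil markers and erythroid and platelet markers had median differences of opposite sign in the 2 genotypes, both at least 0.5 in size, a limit set after the medians were seen; the difference between genotypes was not tested. For neutrophil markers (6 tested of 13) the Col1a1-high minus Col1a1-low median was −0.73 in WT and 1.02 in PAD4-DN. For erythroid and platelet markers (7 tested of 11) it was −1.12 in WT and 2.98 in PAD4-DN. The neutrophil list summed to 3.89 and 19.5 CPM in WT replicate 2 and PAD4-DN replicate 1 and to 13.2 and 7.29 CPM in WT replicate 1 and PAD4-DN replicate 2, with Elane at 0 in all 4 libraries. The erythroid and platelet list summed to 6.31 and 139 CPM versus 42.7 and 5.91 CPM. Both lists were therefore higher in the replicate 1 libraries of both genotypes, an order that crosses the Col1a1 pairs. The beta-globin gene Hbb-bs was at 1.39 and 50.4 CPM in the Col1a1-high pair and at 17.9 and 1.13 CPM in the Col1a1-low pair. S100a9, a neutrophil calcium-binding protein, was at 0.952 and 7.07 CPM versus 5.54 and 1.22 CPM.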

How the results depend on the processing

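The count of genes higher in the Col1a1-high pair (166) stayed between 164 and 172 with DESeq2 size factors, plain library totals, no low-count filter or protein-coding genes only. It was 80 with a mean of at least 5 CPM, where fewer genes were tested, 116 in log2(TPM + 1), 296 in log2(CPM + 0.25) and 347 at 1.5-fold. The count of lower genes (9) stayed between 7 and 9 in the first 5 of these and was 26 in TPM, 23 in log2(CPM + 0.25) and 53 at 1.5-fold. Leaving out any library leaves the difference of 1 genotype, which gave 281 to 435 higher and 91 to 117 lower genes. No genes were called by genotype in edgeR, also with DESeq2 size factors (362 at an unadjusted p under 0.05) or a replicate block (309); DESeq2 called 11 (364), edgeR without the filter 10 (737), and leaving out each library 0 to 2, the 2 without WT replicate 2. A block crossing the numbers, added after the data were seen, called 0 (412, smallest adjusted p 0.0505).

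List medians (mean of both genotypes) were recomputed for the 37 lists with at least 5 tested members under 4 alternatives: of 148 values 125 moved by less than the spread between the genotypes, 11 by more and 12 changed sign, and the cause was not tested. In log2(CPM + 0.25) the medians were 0.98 for fibrillar collagens (0.65 before), 0.69 for B and dendritic cell markers (0.49), 0.52 for pericyte and smooth muscle markers (0.28) and 0.97 for complement (0.59). In log2(TPM + 1) they were 0.52 for fibrillar collagens, 0.33 for B and dendritic cell markers, 0.11 for pericytes, −0.12 for mesenchymal identity and 0.084 for heat shock. Sign changes in TPM came from medians near 0: p53 targets 0.055, unfolded protein response 0.024, lysosomal proteases 0.027, oxidative phosphorylation 0.077 and ribosomal proteins 0.011. With plain totals mesenchymal identity was −0.007 and heat shock 0.089, and the sign changed for neutrophil markers (0.013), p53 targets (0.036), unfolded protein response (0.023), lysosomal proteases (0.025) and oxidative phosphorylation (0.029). With DESeq2 factors it changed for epithelial identity (−0.009) and S phase (−0.000). Leaving out each library gave these ranges of list medians: fibroblast markers 0.56 to 0.77, fibrillar collagens 0.70 to 0.83, other interstitial collagens 0.66 to 1.72, collagen-processing enzymes 0.23 to 0.31, small leucine-rich proteoglycans 0.26 to 1.62, elastic fibre and matrix glycoproteins 0.40 to 0.64, basement membrane −0.007 to 0.61, metalloproteinases and inhibitors −0.25 to 0.40, macrophage and monocyte markers −0.001 to 1.63, pan-leukocyte genes −0.094 to 1.44, neutrophil markers −0.73 to 1.01, B and dendritic cell markers 0.39 to 0.50, endothelial markers 0.062 to 0.66, pericyte and smooth muscle markers 0.23 to 0.32, erythroid and platelet markers −1.12 to 2.98, Schwann and nerve markers −0.068 to 0.29, epithelial identity −0.16 to 0.17, mesenchymal identity −0.18 to −0.13, immediate early genes 0.62 to 0.94, heat shock chaperones 0.014 to 0.037, YAP and matricellular targets −0.092 to 0.27, TGF-beta ligands and feedback 0.014 to 0.29, NF-kB and inflammatory cytokines −0.16 to 0.18, type I interferon response 0.46 to 1.65, interferon-gamma and antigen presentation 0.62 to 0.92, hypoxia and glycolysis −0.51 to −0.20, S phase and replication −0.12 to 0.26, mitosis 0.036 to 0.43, cholesterol synthesis −0.65 to 0.14, p53 targets −0.093 to 0.11, unfolded protein and integrated stress response −0.045 to 0.056, NRF2 response −0.27 to −0.069, lysosomal proteases −0.094 to 0.10, nuclear oxidative phosphorylation −0.058 to 0.061, ribosomal proteins −0.25 to 0.078, mitochondrially encoded genes −0.15 to 0.40, complement components and regulators 0.43 to 0.86.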

Other observations

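Several genes in none of the lists, singled out here after their values were seen, were also counted as higher in the Col1a1-high pair. Prg4, the lubricating proteoglycan lubricin, was at 54.2 and 109 CPM in WT replicate 2 and PAD4-DN replicate 1 and at 18.3 and 45.7 CPM in WT replicate 1 and PAD4-DN replicate 2. In that gene the pairs did not overlap. Angptl7 was at 18.4 and 64.0 CPM versus 5.41 and 21.1 CPM, and Nfkbiz, an inducible regulator of NF-kB targets, at 140 and 297 CPM versus 65.8 and 144 CPM. In these 2 genes PAD4-DN replicate 2, a Col1a1-low library, was slightly above WT replicate 2, so the pairs overlapped although both within-genotype differences passed 2-fold. Ptgfrn, a membrane partner of tetraspanins, was at 121 and 123 CPM versus 52.8 and 50.5 CPM, with each pair closely matched.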
